A study of Mus musculus with 12 samples.

Results

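The miR-99/100 and miR-125 families were followed in LLC1 cells, a mouse Lewis lung carcinoma line, on 1-colour Agilent microRNA arrays. The members were the 6 array entries whose mouse microRNA (miRNA) name is miR-99a-5p, miR-99b-5p, miR-99b-3p, miR-100-5p, miR-125a-5p or miR-125b-5p, out of 576 entries in all. The 4 groups had 3 arrays each: untreated control cells, cells given a single X-ray dose of 2 Gy, cells given a single dose of 10 Gy, and cells given the fractionated dose of 5x2 Gy. All groups are the same line in culture with no other agent named, RNA from irradiated cells was taken 4 h after treatment, and the spacing of the fractions is not given in the sources used here. Per the labels the 3 arrays of a group are biological replicates; whether they came from separate cultures or days is not said, so the p-values measure the spread between these arrays.

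MiRNAs are short RNAs that guide repressor proteins to messenger RNAs, and pairing of the seed, bases 2 to 8 from the 5′ end, does most to choose the targets. The miR-99/100 family is related to miR-10 and is known, mostly from human cells, to repress MTOR, a growth kinase, and SMARCA5, a chromatin remodeller that takes part in DNA repair. The miR-125 family is the vertebrate counterpart of worm lin-4, which times developmental steps in worm larvae. In mammals the families sit beside each other in clusters that also hold a let-7 gene.

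The mature sequences below come from RefSeq on GRCm38.p6, which held all 6 members; they are shown because the families are defined by their seeds, which stand in capitals.
mmu-miR-99a-5p: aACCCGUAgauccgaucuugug
mmu-miR-99b-5p: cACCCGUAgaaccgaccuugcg
mmu-miR-100-5p: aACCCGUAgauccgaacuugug
mmu-miR-99b-3p: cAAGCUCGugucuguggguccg
mmu-miR-125a-5p: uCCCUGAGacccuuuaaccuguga
mmu-miR-125b-5p: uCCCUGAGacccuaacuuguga

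The 5p members miR-99a, miR-99b and miR-100 shared 1 seed. No other RefSeq mouse miRNA had it in the search made, which left 1 chromosome out. RefSeq held 466 of the 566 mouse entries of the array by name, so entries that share a seed could be missed. With positions counted from 1 at the 5′ end, miR-99a-5p and miR-100-5p differed by U16A alone (miR-99a base first), and miR-99a-5p and miR-99b-5p by A1C, U11A, U16C and U21C. MiR-125a-5p and miR-125b-5p shared their seed and their first 13 bases, with 24 and 22 bases in all. The array also held miR-351-5p, which has the miR-125 seed and was not detected on all arrays of any group. How far the probes of such near-identical miRNAs share signal was not tested.

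The members came from 3 clusters. On GRCm38.p6, miR-99b-5p lay at chr17:17830194-17830215 and miR-125a-5p at chr17:17830817-17830840, both on the plus strand and within the gene Spaca6, with let-7e-5p between them at chr17:17830366-17830387. Mature miR-99b-3p, from the other arm of the Mir99b hairpin, lay at chr17:17830232-17830253. MiR-100-5p was at chr9:41531437-41531458 and 1 copy of miR-125b-5p at chr9:41581940-41581961, within the non-coding RNA gene Mir100hg and with Mirlet7a-2 between them. MiR-99a-5p was at chr16:77598940-77598961, let-7c-5p 732 bases further on, and the second copy of miR-125b-5p at chr16:77646279-77646300. The array cannot tell the copies of miR-125b-5p apart.

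The arrays differed in brightness, which was taken as the 75th percentile of the probe signals over the probes detected on every array. It was 345.9, 110.5 and 703.3 in control replicates 1 to 3, 316.3, 897.3 and 323.6 after 2 Gy, 388.1, 306.7 and 867.3 after 10 Gy, and 1088, 1102 and 1004 after 5x2 Gy. Between 48 and 137 miRNAs were detected per array. The arrays came from 2 slides. Slide 2 carried the 5x2 Gy arrays and 10 Gy replicate 3, and slide 1 the other 8 arrays, so control and 5x2 Gy arrays never shared a slide. Only the 10 Gy group was on both slides. A fit with slide as a block therefore takes its slide effect from 10 Gy replicate 3 against 10 Gy replicates 1 and 2. Levels below are log2 of the signal relative to the brightness percentile, and the floor set under dim signals was -4.06. Each array gives the level over a whole culture, so fewer cells with a miRNA and less of it per cell cannot be told apart. Of 5 epithelial marker miRNAs (the miR-200 family), 0 were detected on any array of this carcinoma line, and of 5 mesenchymal markers 4 were. Of 6 blood cell markers, miR-142a-3p was detected on all 12 arrays, miR-142a-5p on 6 and the others on 0. Of 2 endothelial markers 1 was detected, on 3 arrays, of 2 muscle markers 1, on 2 arrays, and of 3 nerve cell and liver markers 0.

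Detection of the members followed the brightness of the arrays. A probe counted as detected when more than 0.5 of its spots were well above background. Of the 6 members, control arrays detected 2 to 4, 2 Gy arrays 3 to 4, 10 Gy arrays 3 to 4, and 5x2 Gy arrays 5 to 6. MiR-125a-5p and miR-125b-5p were detected on all 12 arrays, miR-99b-5p on 11, miR-100-5p on 6, miR-99a-5p on 3 and miR-99b-3p on 2. There were 5 tested members, those detected on all 3 arrays of some group. MiR-99a-5p and miR-100-5p entered the tests only through the 5x2 Gy arrays, so the filter already used the values that set them apart.

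**Figure D1:**
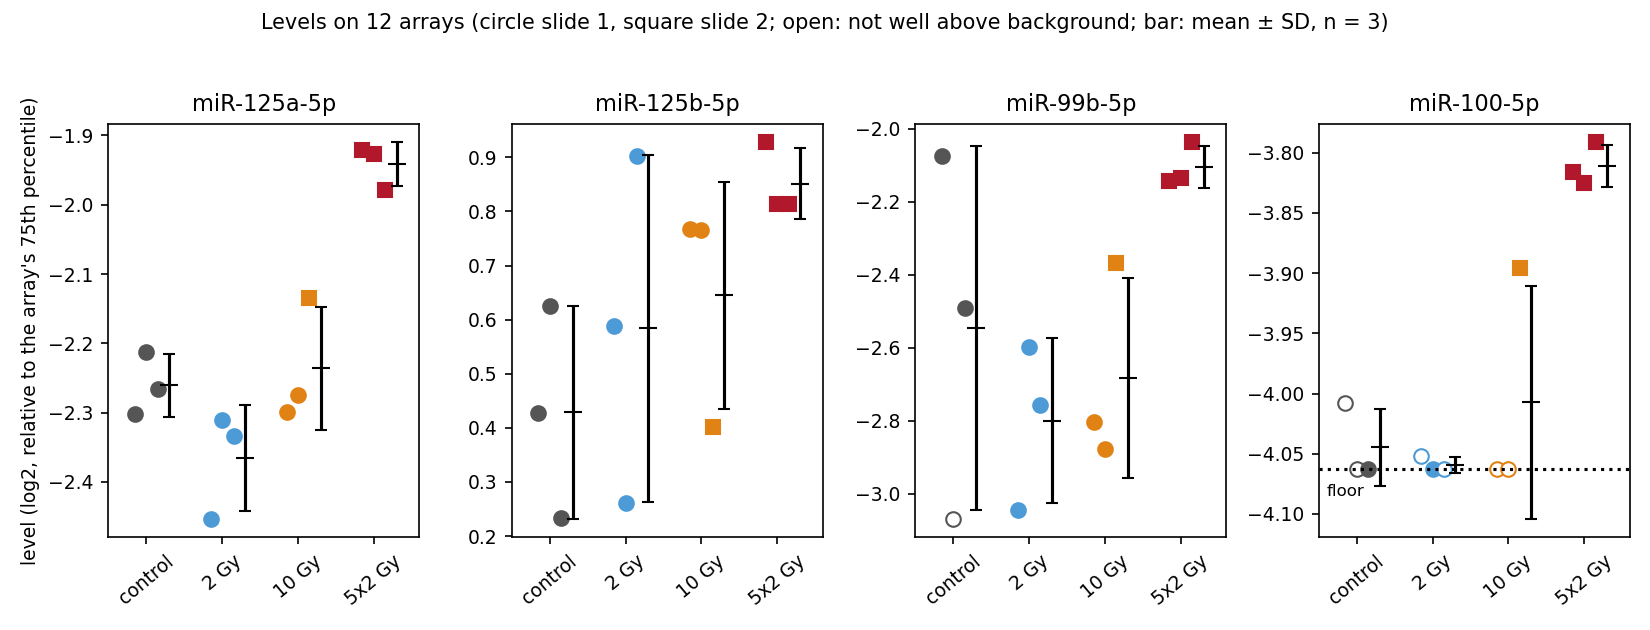
Levels of miR-125a-5p, miR-125b-5p, miR-99b-5p and miR-100-5p on each array, as log2 relative to the array's 75th percentile, with separate vertical scales. Colours are the groups, circles slide 1, squares slide 2, open points arrays on which the miRNA was not detected, and bars the mean ± SD over 3 arrays; the 5x2 Gy arrays of miR-125a-5p (-1.98 to -1.92) lie above all others, as do those of miR-100-5p, whose other arrays lie mostly at the dotted floor.

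After 5x2 Gy against control, miR-125a-5p, which shares its cluster with miR-99b, was higher by a small amount. MiR-100-5p was also higher, near the floor, but it entered the tests only through its detection on the 5x2 Gy arrays. For both, the sign turned under normexp background correction. So did the median over the 71 tested miRNAs above the floor on every array (-0.30). MiR-125b-5p and miR-99b-5p had higher means after 5x2 Gy but did not pass the test, and miR-99a-5p lay at the floor on all 12 arrays. Of the 5 tested members, 2 passed as higher and 0 as lower by limma, beside 12.7% of the 118 miRNAs tested (15, all higher). On every 5x2 Gy array 3 of the 5 lay above every control array and 0 below, beside 28% and 5.08% of the 118. MiR-100-5p is among both the 2 and the 3, so these counts are not independent of the filter. The median difference was 0.32 over the 5 tested members and 0.0004 over all 118, both of which include miRNAs at the floor. Over the 71 tested miRNAs that lay above the floor on every array it was 0.17.

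MiR-125a-5p, encoded in the chr17 cluster, had levels of -1.92, -1.93 and -1.98 on the 5x2 Gy arrays, against -2.30, -2.21 and -2.27 on the control arrays. The groups did not overlap, and the gap was several times the spread within either group. Its mean was -1.94 ± 0.03 after 5x2 Gy and -2.26 ± 0.05 in control (SD, n = 3 each), a log2 difference of 0.32 (SE 0.05, 95% interval 0.20 to 0.44), or 1.25-fold (limma adjusted p = 0.00623). This difference was larger than that of 76.1% of the 71 miRNAs above the floor. Both of its probes were higher after 5x2 Gy, by 0.41 and 0.23. With slide as a block the difference was 0.17 (limma adjusted p = 0.321). With median scaling it was 0.10 (limma adjusted p = 0.455), beside a median of -0.04 over the 71 miRNAs. The call was lost under both. Over the 15 alternative settings the limma adjusted p ran from 0.0056 to 0.455. The value with slide as a block rests on 10 Gy replicate 3, the only array that links the slides. Normexp background correction turned the difference from control to -0.31, beside a median of -0.30 over the 71 miRNAs.

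Sister miRNA miR-125b-5p is the product of both the chr9 and chr16 clusters. Its levels were 0.93, 0.81 and 0.81 on the 5x2 Gy arrays, against 0.43, 0.63 and 0.23 on the control arrays. The 5x2 Gy arrays were all above the control arrays, and the spread was wider in control. The means were 0.85 ± 0.07 after 5x2 Gy and 0.43 ± 0.20 in control (SD, n = 3 each), a difference of 0.42 (SE 0.17, 95% interval 0.03 to 0.82) that did not pass the test over all miRNAs (limma adjusted p = 0.147). Outside the 5x2 Gy group the 3 brightest arrays (control replicate 3, 2 Gy replicate 2 and 10 Gy replicate 3) had its 3 lowest levels, 0.23, 0.26 and 0.40. For 5x2 Gy minus control, the limma adjusted p of miR-125b-5p ran from 0.00226 to 0.81 over the 15 alternative settings. With array brightness as a covariate, which is among these settings, the difference was 0.80 (limma adjusted p = 0.00701) and passed. That fit called 28 of the 118 miRNAs in this comparison, 21 higher and 7 lower. Every 5x2 Gy array was brighter than every array of the other groups.

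MiR-99b-5p, the cluster mate of miR-125a, varied more within the control group than miR-125a-5p or miR-125b-5p. Its levels were -2.14, -2.13 and -2.04 on the 5x2 Gy arrays, against -2.08, -3.07 and -2.49 on the control arrays, where replicate 2 was not detected. Control replicate 1 thus lay among the 5x2 Gy arrays, and the groups overlapped. The means were -2.11 ± 0.06 after 5x2 Gy and -2.55 ± 0.50 in control (SD, n = 3 each), a difference of 0.44 (SE 0.24, 95% interval -0.12 to 1.00) that did not pass (limma adjusted p = 0.266). Without control replicate 1 it was 0.67, without control replicate 2 it was 0.18, and with brightness as a covariate or slide as a block it was -0.03.

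MiR-100-5p, 1 base from miR-99a-5p, was near the floor throughout. Its levels were -3.82, -3.83 and -3.79 on the 5x2 Gy arrays, against -4.01 in control replicate 1 and the floor in control replicates 2 and 3. It was detected on 3 of 3 arrays after 5x2 Gy, which let it into the tests, and on 1 of 3 in control. The difference of 0.23 (SE 0.04, limma adjusted p = 0.00743) moved with the setting of the floor. A floor 4 times lower gave 0.94 (limma adjusted p = 0.0813), and with the floor doubled every array lay on it. With slide as a block it was 0.067 (limma adjusted p = 0.321, and 0.000641 to 1 over the 15 alternative settings). Normexp, which adds an offset of 50 to every signal, gave -0.86. Only 1 of the 2 probes of miR-100-5p lay above the floor.

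MiR-99a-5p, from the chr16 cluster, was detected on the 3 arrays of 5x2 Gy and on 0 of the 3 control arrays. The mean signal of its detected probe was 32.0, 31.6 and 26.7 in linear units on the 5x2 Gy arrays, against 6.47, -0.166 and 11.6 on the control arrays, where it was not well above background. Relative to array brightness these averaged 0.0282 after 5x2 Gy and 0.0112 in control. The lowest signal that counted as detected on the control arrays was higher than the level after 5x2 Gy, so no fold is given. The brightest probe of miR-99b-3p gave 24.5, 26.4 and 23.5 on the 5x2 Gy arrays and 12.1, 8.91 and 19.5 on the control arrays, and it was detected on 5x2 Gy replicates 2 and 3 only. For both miRNAs, and for miR-100-5p, the highest signal of the control, 2 Gy and 10 Gy groups was on the brightest array of the group.

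**Figure D2:**
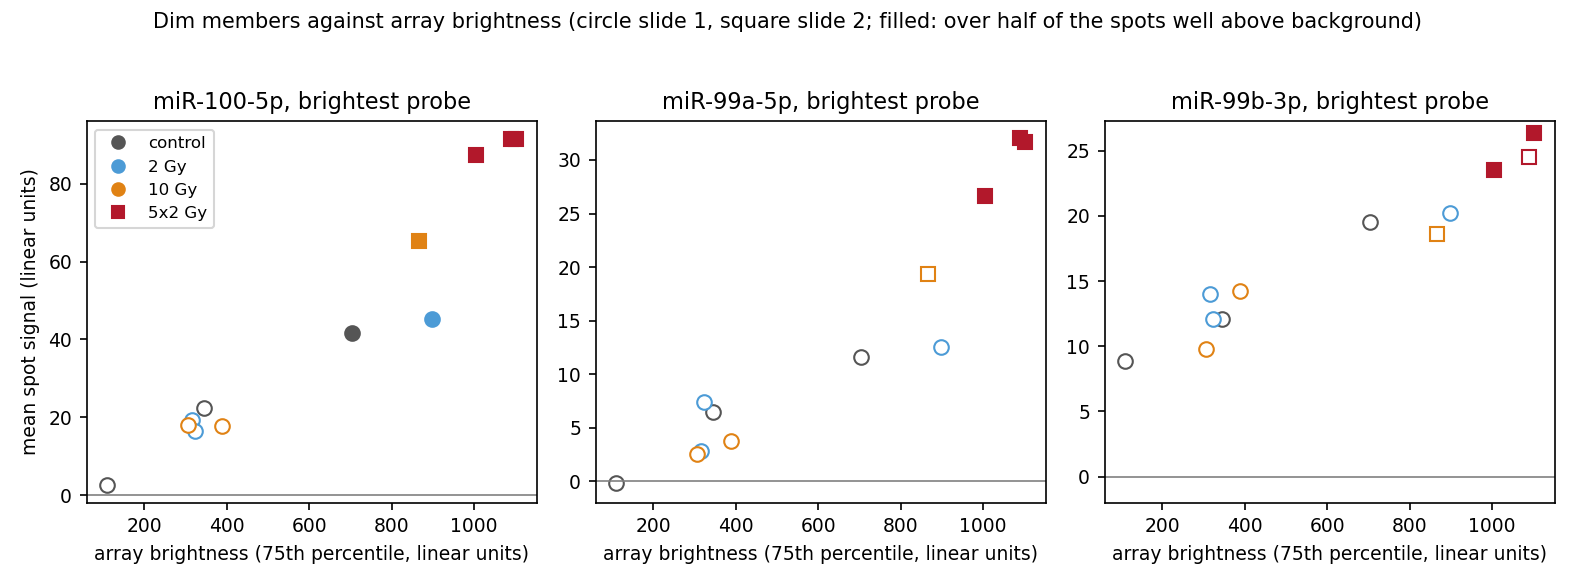
Mean spot signal of the brightest probe of miR-100-5p, miR-99a-5p and miR-99b-3p against array brightness, both in linear units, for the 12 arrays. Colours are the groups, circles slide 1 and squares slide 2, and filled points are arrays on which the probe was detected; signal follows brightness, and the 5x2 Gy arrays, at 1004 to 1102, are the brightest.

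After 10 Gy given at once, no member passed against control, beside 0.847% of the 118 miRNAs (1, higher); 24 of the 118 had an unadjusted p under 0.05, and 0 of the 5 tested members did. None of the 5 had all 10 Gy arrays above or below all control arrays, beside 8.47% and 6.78% of the 118. MiR-125a-5p was at -2.30, -2.28 and -2.13 after 10 Gy, against -2.30, -2.21 and -2.27 in control, and the groups overlapped. Its difference was 0.02 (95% interval -0.09 to 0.14, limma adjusted p = 0.928), so a rise of the size seen after 5x2 Gy lay outside the interval. MiR-125b-5p was at 0.77, 0.77 and 0.40 after 10 Gy and differed by 0.22 (95% interval -0.18 to 0.61, limma adjusted p = 0.565). With brightness as a covariate its difference was 0.35 and passed (limma adjusted p = 0.0451, the lowest of 16 alternative settings that ran up to 1). That fit called 26 of the 118 miRNAs in this comparison, 14 higher and 12 lower. MiR-99b-5p was at -2.80, -2.88 and -2.37 and differed by -0.14 (95% interval -0.70 to 0.42, limma adjusted p = 0.877), a direction that turned without control replicate 1 (0.097). MiR-100-5p was above the floor on 10 Gy replicate 3 alone (-3.90), the array on slide 2, and differed by 0.04 (limma adjusted p = 0.666).

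After 2 Gy, limma called 0 of the 118 miRNAs against control, 0% in all, with 11 at an unadjusted p under 0.05 and 0 of the members among them. MiR-125a-5p was at -2.45, -2.31 and -2.33 after 2 Gy, below all 3 control arrays, and it was the only tested member that separated; 2.54% of the 118 separated downwards and 4.24% upwards. The difference of -0.11 (95% interval -0.22 to 0.01) did not pass (limma adjusted p = 0.518), and its direction turned under 5 of the other ways of processing. MiR-125b-5p was at 0.59, 0.26 and 0.90 after 2 Gy, a range that spans nearly all of its levels in the study, and differed by 0.16 (95% interval -0.24 to 0.55, limma adjusted p = 0.831). MiR-99b-5p was at -3.04, -2.60 and -2.76 and differed by -0.25 (95% interval -0.81 to 0.30, limma adjusted p = 0.804). MiR-100-5p was at -4.05 on replicate 1 and at the floor on the other arrays, and miR-99a-5p was at the floor on all 3.

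The comparison of 5x2 Gy with 10 Gy sets the same nominal total dose given in fractions against the dose given at once. MiR-125a-5p and miR-100-5p were higher after 5x2 Gy, and they were 2 of the 3 miRNAs called among 118 (2.54%, all higher). This comparison shares the 5x2 Gy arrays with the comparison against control. MiR-100-5p entered the tests only through those arrays, so its call is no separate support. MiR-125a-5p was at -1.92, -1.93 and -1.98 after 5x2 Gy and at -2.30, -2.28 and -2.13 after 10 Gy, with no overlap. The difference was 0.29 (SE 0.05, 95% interval 0.18 to 0.41), or 1.23-fold (limma adjusted p = 0.0215), beside a median of 0.13 over the 71 miRNAs above the floor. Within slide 2, where 10 Gy replicate 3 stood against the 3 arrays of 5x2 Gy, the difference was 0.19 (limma adjusted p = 0.158, the lone 10 Gy array being assumed to vary like the 5x2 Gy arrays). With slide as a block the limma adjusted p was 0.314 (0.0285 to 0.725 over the 16 alternative settings). Normexp turned the difference to -0.11, beside a median of -0.11 over the 71 miRNAs. Leaving out 10 Gy replicate 1 or 2, or any 5x2 Gy replicate, ended the call, and over these 5 fits the difference ran from 0.26 to 0.31 and the limma adjusted p from 0.0569 to 0.118.

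For miR-100-5p the levels were -3.82, -3.83 and -3.79 after 5x2 Gy, against the floor, the floor and -3.90 after 10 Gy. The difference of 0.20 (SE 0.04, limma adjusted p = 0.047) lay just inside the threshold. It was lost without any 1 of 11 arrays (limma adjusted p up to 0.208) and kept only without 10 Gy replicate 3. Within slide 2 the difference was 0.085. Over the 16 alternative settings the limma adjusted p ran from 0.00232 to 1. Normexp gave -0.55, beside a median of -0.11 over the 71 miRNAs above the floor. MiR-99b-5p did not overlap between the groups, at -2.14, -2.13 and -2.04 after 5x2 Gy and -2.80, -2.88 and -2.37 after 10 Gy. Its difference of 0.58 (SE 0.24, 95% interval 0.02 to 1.14) did not pass (limma adjusted p = 0.305). MiR-125b-5p differed by 0.21 (95% interval -0.19 to 0.60, limma adjusted p = 0.656), and its 2 probes disagreed, at 0.41 and 0.0035. In all, 4 of the 5 tested members were higher on every 5x2 Gy array than on every 10 Gy array, beside 25.4% of the 118. MiR-100-5p, let into the tests by its 5x2 Gy arrays, is among the 4.

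**Figure D3:**
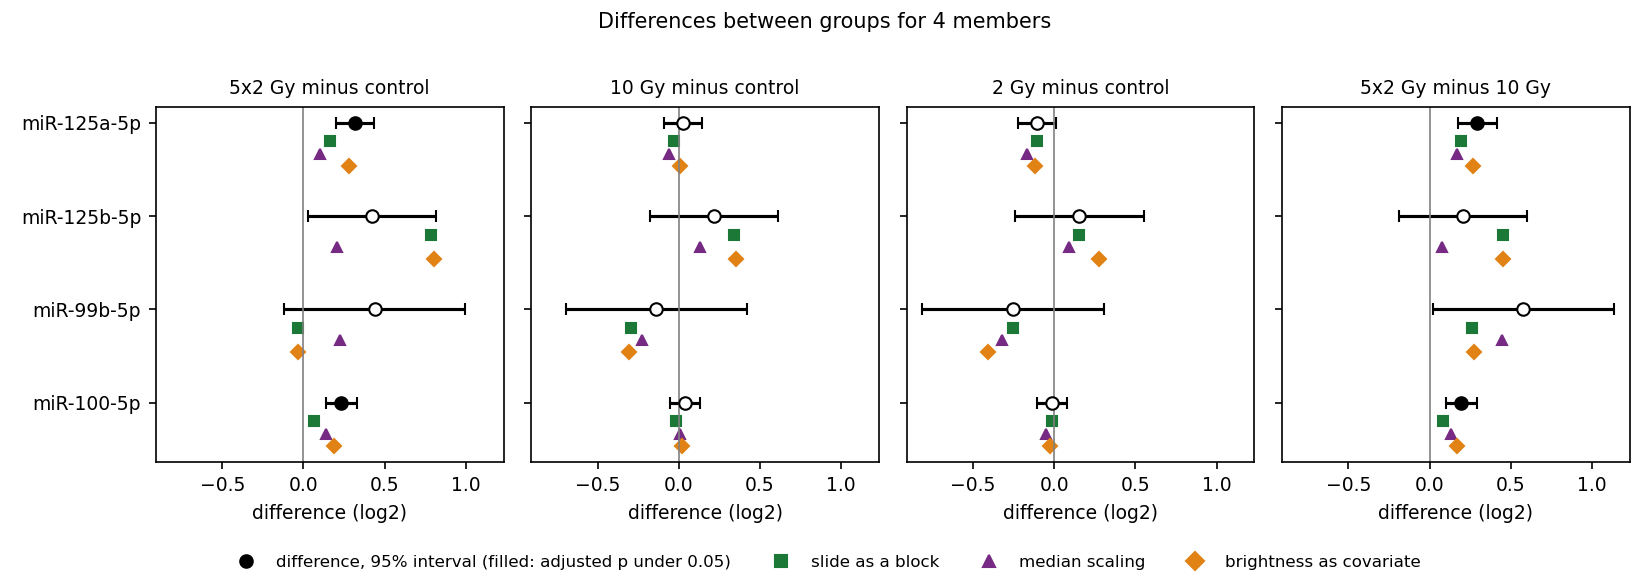
Differences between groups (log2) for miR-125a-5p, miR-125b-5p, miR-99b-5p and miR-100-5p in 4 comparisons. Circles with bars are limma differences with 95% intervals, filled where the adjusted p was under 0.05. Squares are the fit with slide as a block, triangles median scaling and diamonds the fit with brightness as a covariate. For miR-125a-5p the 5x2 Gy differences of 0.32 and 0.29 stay above 0 in the fits drawn. They turned with normexp (not drawn), as did the median over the 71 miRNAs above the floor. For miR-99b-5p the difference from control does not stay above 0.

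Over the 4 groups the order of means had 5x2 Gy at the top for miR-125a-5p, miR-125b-5p, miR-99b-5p and miR-100-5p. For miR-125a-5p the order from the lowest was 2 Gy, control, 10 Gy and 5x2 Gy, where control and 10 Gy overlapped and the other neighbours did not. For miR-125b-5p it was control, 2 Gy, 10 Gy and 5x2 Gy, and the first 3 overlapped. The 5x2 Gy group also overlapped 2 Gy, where replicate 3 (0.90) lay above 5x2 Gy replicates 2 and 3 (0.81 each). For miR-99b-5p it was 2 Gy, 10 Gy, control and 5x2 Gy, and all neighbours overlapped. The full range over 12 arrays was 0.53 for miR-125a-5p, 0.69 for miR-125b-5p and 1.03 for miR-99b-5p on the log2 scale.

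The miRNAs of the chr17 cluster did not all vary alike across arrays. MiR-99b-5p, let-7e-5p and miR-125a-5p lie within 623 bases between the mature starts of the outer pair. Over the 12 arrays, miR-99b-5p and miR-125a-5p had a Pearson r of 0.71 (Spearman rho 0.50), but r was 0.13 among the 8 arrays of slide 1. MiR-125a-5p and let-7e-5p had an r of 0.32 (rho 0.28) and 0.14 on slide 1. MiR-99b-5p and let-7e-5p had an r of -0.31 (rho -0.25) and -0.82 on slide 1. Control replicate 1 shows the contrast: it had the second highest level of miR-99b-5p of the 12 arrays (-2.08) and the lowest of let-7e-5p (-1.59). In the other clusters, miR-125b-5p had an r of 0.61 with let-7c-5p (0.81 on slide 1) and 0.64 with let-7a-5p (0.64 on slide 1). These arrays share brightness and slide, so the coefficients are given as a description of them.

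**Figure D4:**
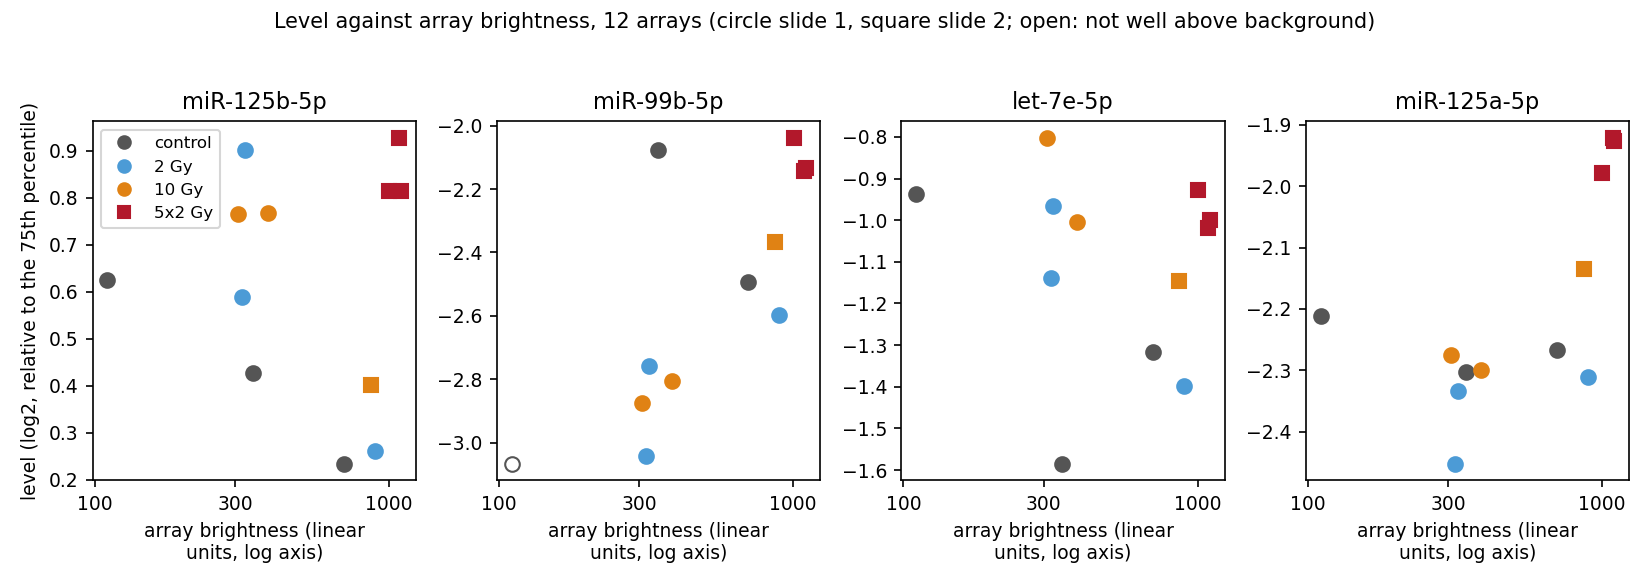
Levels (log2, relative to the array's 75th percentile) of miR-125b-5p and of the chr17 cluster miRNAs miR-99b-5p, let-7e-5p and miR-125a-5p against array brightness (linear units on a log axis) for 12 arrays. Colours are the groups, circles slide 1, squares slide 2, and the open point an array without detection; among the arrays other than 5x2 Gy, miR-125b-5p and let-7e-5p were low on bright arrays, and control replicate 1 stands apart for miR-99b-5p and let-7e-5p.

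Among the 70 other tested miRNAs above the floor on all arrays, the pattern most like that of miR-99b-5p was that of miR-22-3p (r = 0.94, rho 0.93 over 12 arrays), followed by miR-31-5p (r = 0.91, rho 0.88) and miR-29a-3p (r = 0.88, rho 0.80). On slide 1 alone these were 0.93, 0.87 and 0.76. For miR-125b-5p they were miR-34c-5p (r = 0.86, rho 0.64), miR-151-5p (r = 0.79, rho 0.57) and miR-23b-3p (r = 0.79, rho 0.58), with 0.90, 0.81 and 0.93 on slide 1. For miR-125a-5p they were miR-199a-5p (r = 0.88, rho 0.80), miR-26a-5p (r = 0.84, rho 0.62) and miR-25-3p (r = 0.80, rho 0.55). On slide 1 these were 0.28, 0.076 and 0.29, lower than over all 12 arrays. MiR-199a-5p is a mesenchymal marker, and the summed level of the 5 mesenchymal markers, relative to the percentile, was 1.59 to 1.93 in control, 1.74 to 2.10 after 2 Gy, 1.97 to 2.20 after 10 Gy and 2.09 to 2.20 after 5x2 Gy, with miR-145a-5p detected on 0 arrays. Their part in the result was not tested.

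Of the 13 cluster partners and other arms, 8 were on the array and 4 were tested. Against control, let-7c-5p, the partner of miR-99a and a repressor of growth genes, was higher after 5x2 Gy, with a difference of 0.22 (SE 0.05, limma adjusted p = 0.0379). With slide as a block that difference was 0.10 (limma adjusted p = 0.687), so this call was lost too. The other 3 did not pass. Let-7e-5p differed by 0.30 (limma adjusted p = 0.279) and let-7a-5p by 0.24 (limma adjusted p = 0.128). MiR-125a-3p, at the floor on 11 of 12 arrays, differed by -0.10 (limma adjusted p = 0.368). That sign comes from control replicate 1 (-3.78), where miR-125a-3p was not detected. It was detected on 3 of 3 arrays after 5x2 Gy and on 1 of 3 in control. Both let-7c-5p and let-7a-5p have more than 1 gene, so their levels are not those of these clusters alone. In the other comparisons 0 of the 4 passed. With array brightness as a covariate let-7e-5p passed against control, with 0.64 for 5x2 Gy (limma adjusted p = 0.0252) and 0.42 for 10 Gy (limma adjusted p = 0.0445). In those comparisons that fit called 28 and 26 of the 118 miRNAs. Of the related miR-10 family, miR-10a-5p was mostly at the floor, and miR-10b-5p differed from control by 0.51 in the 2 Gy group, 0.47 in the 10 Gy group and 0.40 in the 5x2 Gy group, of which none passed (limma adjusted p of 0.502, 0.236 and 0.228).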

How the data were processed

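Feature Extraction 10.7.3.1 from Agilent is named in the submitters' processing notes. The intensity of each spot, linear, is as deposited; per the file headers it was background-subtracted and detrended across the array. Feature Extraction's deposited 0 or 1 flags were used to filter spots. The authors' deposited series table is in log2 and equals those signals after log2 and a shift per array that brings all columns to 1 mean. Signals at or under 0 have no log2, so low signals must hold a set value there. In control replicate 1 the column median equals the shift (0.268), the value that a signal of 1 would take.

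Control and outlier spots were dropped, and the remaining spots of each probe averaged. Signals were divided by the array's 75th percentile, taken over 78 probes that every array detected, floored at 0.0598 of it and put on the log2 scale. Probes detected on at least 3 arrays were averaged per miRNA. Testing required detection on all 3 arrays of some group, met by 118 of 576 entries. Differences come from limma 3.58.1 (R 4.3.3) in 1 fit of the 12 arrays without covariates (8 residual degrees of freedom). Tests were two-sided, adjusted by Benjamini-Hochberg over the 118 in each comparison, with a threshold of 0.05. The fit was tested on simulated data. The number of arrays limits the precision. Normexp used the median spot and background signals, since the files carry no mean signal column, and added an offset of 50 to each. Alternatives covered scaling, background correction, floor, filter, probes, slide, brightness, replicate number and each array left out. Sequences and positions are RefSeq's for GRCm38.p6; the headers name mm9 for the array design, and no position was taken from the scanner files. Named by rule were all members, the partner, miR-10 and marker lists, and the 3 miRNAs most like each member above the floor on all arrays; members and lists were chosen with earlier results of these data known.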

Additional observations from a re-analysis of the deposited data

Results flagged for a closer look

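MiR-99b-3p was in no comparison, since it was not detected on all arrays of any group, and its brightest probe was well above background on 2 arrays, 5x2 Gy replicates 2 and 3, and on 0 of the 3 control arrays. The probe had 4 of 5 and 3 of 5 spots well above background there, and the array brightness was 1102 and 1004, against 110.5 to 703.3 in control. Its signal relative to brightness lay at or under the floor on all 3 arrays of 5x2 Gy. The part of array brightness in this detection was not tested.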

How the results depend on the processing

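For 5x2 Gy minus control, the number of members called (2) was 4 with the percentile over all probes or no scaling, 5 with the deposited log2 table, 3 with brightness as a covariate (miR-125b-5p in addition), 1 with quantile normalization, the doubled floor or the Feature Extraction total gene signal (an alternative added after the data were seen), and 0 with median scaling, normexp or slide as a block; it was 2 with any array left out. With the lower floor it was also 2, but miR-125a-5p and miR-99a-5p, with miR-100-5p lost (0.94, limma adjusted p = 0.0813); miR-99a-5p was detected on 0 control arrays, so its pass there says nothing about its size. Of all 118 miRNAs, 5x2 Gy minus control called 99 with all probes, 85 with no scaling, 84 with the deposited table and 28 with brightness, beside 15 as reported. Quantile normalization and the doubled floor called 7 each, the total gene signal 10 and the lower floor 25. Median scaling called 3, normexp 5 (all lower) and slide as a block 1. Scaling over all probes, no scaling and the deposited table also moved the median difference of the 71 miRNAs above the floor to 1.67, 1.79 and 1.64, so the members' larger differences there are shared by the whole array. For 5x2 Gy minus 10 Gy, the count (2) was 4 with all probes, 1 with no scaling, the doubled floor, the brightest probe or the replicate block, and 0 with median scaling, quantile normalization, normexp, the deposited table, the lower floor, no filter on dim probes, slide as a block, within slide 2, brightness as a covariate, only the 2 groups compared or the total gene signal; leaving out any 1 array gave 0 to 2. Over all 118 miRNAs, 5x2 Gy minus 10 Gy called 78 with all probes and 25 with no scaling, beside 3 as reported. For 10 Gy minus control the count of members was 0 except for 1 with brightness as a covariate (26 of the 118). For 2 Gy minus control it was 0 throughout. The cause of these shifts was not tested. Without the filter, 576 entries enter the adjustment.

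Normexp turned the 5x2 Gy differences of miR-99b-5p (-0.32 against control and -0.015 against 10 Gy), miR-100-5p (-0.86 and -0.55) and miR-125a-5p (-0.31 and -0.11) and the 10 Gy differences of miR-100-5p (-0.32) and miR-125a-5p (-0.19). Under it the median over the 71 miRNAs above the floor was -0.30 for 5x2 Gy minus control. That median was -0.11 for 5x2 Gy minus 10 Gy and -0.17 for 10 Gy minus control. For miR-99a-5p, at the floor on every array in the reported values, normexp gave -1.12 for 5x2 Gy against control (limma adjusted p = 0.0718) and -0.73 against 10 Gy (limma adjusted p = 0.331). The offset of 50 that normexp adds exceeds the 32.0 its detected probe reached at most, so that sign shows no direction. In the deposited signals, relative to brightness, it averaged 0.0282 after 5x2 Gy, 0.0112 in control and 0.01345 after 10 Gy. MiR-99b-5p against control turned after 5x2 Gy with slide as a block (-0.032) and brightness (-0.033). After 10 Gy it turned with all probes (0.12), quantile normalization (0.11), no scaling (0.12), the deposited table (0.40) and the total gene signal (0.088), and after 2 Gy with the deposited table (0.17). After 10 Gy, miR-100-5p turned with slide as a block or within slide 1 (-0.018) and the total gene signal (-0.40), and miR-125a-5p with median scaling (-0.063) and slide as a block or within slide 1 (-0.027). After 2 Gy, miR-100-5p turned with all probes (0.016), quantile normalization (0.0019), no scaling (0.020), the deposited table (0.67) and the lower floor (0.25), and miR-125a-5p with all probes (0.0020), quantile normalization (0.027), no scaling (0.33), the deposited table (0.30) and the total gene signal (0.13). MiR-125b-5p turned for 5x2 Gy minus 10 Gy with the total gene signal (-0.091). With 1 array left out, directions turned in 10 Gy minus control for miR-99b-5p (-0.40 to 0.097), miR-100-5p (-0.018 to 0.065) and miR-125a-5p (-0.027 to 0.055), and in 2 Gy minus control for miR-100-5p (-0.024 to 0.0037) and miR-125b-5p (-0.0034 to 0.32); none of these was called.

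Same-numbered arrays deviated with correlations of -0.91 to 0.78, and 6 of 18 pairs were over 0.1. Differently numbered arrays gave -0.75 to 0.87, with 15 of 36 over 0.1. These values show no pairing by replicate number but cannot exclude shared cultures or days, since the arrays also differ in brightness. The part of brightness in them was not tested. With the replicate block the members called were 2 for 5x2 Gy minus control and 1 for 5x2 Gy minus 10 Gy, where miR-100-5p was lost (0.20, limma adjusted p = 0.098). Signal over background limits miR-99a-5p, miR-99b-3p and miR-100-5p.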
